A study of Mus musculus with 4 samples.

Results

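TRBV13-1 and TRBV13-3 are the mouse T-cell receptor β variable segments known by their older names as Vβ8.3 and Vβ8.1. Receptors were assigned to them by the highest-ranked V segment listed for each clonotype, a clonotype being a distinct CDR3 nucleotide sequence together with the V and J segments assigned to it. Together they accounted for 48827 of the 261962 listed clonotypes (18.6%), of which 24481 carried TRBV13-1 and 24346 carried TRBV13-3. In-frame clonotypes, whose reading frame is open across the junction, numbered 22488 for TRBV13-1 and 22827 for TRBV13-3. Another 3411 were out of frame and 101 held a stop codon.

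The receptors came from CD8+ T cells sorted from the livers of wild-type and Vsig4-/- mice, both 14 days after injection of MC38 cells. MC38 is a mouse colon adenocarcinoma line, although the sample labels call the liver metastases melanomas. Vsig4 encodes a receptor for complement fragments on the macrophages that reside in the liver (Kupffer cells), and its loss was in the mice, not in the injected cells. Each genotype had 2 libraries, called wild-type 1, wild-type 2, Vsig4-deficient 1 and Vsig4-deficient 2, and values given in a series follow that order. How many animals a library held, and whether libraries of the same genotype shared animals, is not in the labels. The p-values therefore rest on 4 libraries, and part of the spread among these may be technical. Sorting used CD45, CD3 and CD8 with exclusion of dead cells, but no gene expression was measured, so neither the CD8 identity nor the loss of Vsig4 was checked. In-frame counts were 875201, 857452, 958198 and 1227914, and in-frame clonotypes 47558, 73769, 47017 and 70126. The counts come from RNA, so more cells of a clone and more receptor RNA per cell cannot be told apart.

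A β chain gene is assembled in the thymus by joining a D to a J segment and then a V segment to that DJ. The V end is cut next to its recombination signal and its hairpin is opened. The end may then be trimmed by nucleases, keep short palindromic bases if it is not trimmed, and receive non-templated bases from terminal transferase. The V segment fixes the CDR1 and CDR2 loops, which mostly touch the major histocompatibility molecule, and the junction forms CDR3, which mostly touches the peptide. Out-of-frame joins make no receptor chain, so they are not selected through one, and they serve here as the reference for the joining process itself.

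On chromosome 6 of RefSeq's GRCm38.p6, the assembly family of the mm10 build named in the submitters' processing notes, Trbv13-1 lies at 41116036 to 41116468 and Trbv13-3 at 41130147 to 41130585. The annotated V segments are 13678 bp apart, with Trbv13-2 (Vβ8.2) between them at 41121396 to 41121832, and Trbv13-3 ends 402615 bp before Trbd1. The germline V ends inside the CDR3 are shown first because the main contrast of the genes lies in how much of this stretch was kept. They were read from deposited clonotypes whose V end was untrimmed, and 98.0% of those of each gene began with the printed sequence. Capitals mark the last 7 bases, within which most trimming ended:
TRBV13-1: tgtgccagcAGTGATG
TRBV13-3: tgtgccagcAGTGATG
TRBV13-2: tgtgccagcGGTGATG
The ends of TRBV13-1 and TRBV13-3 did not differ at any of the 16 bases, and TRBV13-2 differed from both by A10G, counted from 1 at the first base of the CDR3. Read in frame, the TRBV13-1 and TRBV13-3 end encodes cysteine, alanine, serine, serine and aspartate, followed by a single base of the next codon. Palindromic bases are by definition the reverse complement of the V end, here C for 1 base and CA for 2 bases. The definition fixes that 100% of clonotypes in these classes carried them, in both genes. Inserted bases that happen to match cannot be told apart from them.

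TRBV13-3 joins had lost more of this shared end than TRBV13-1 joins, in frame and out of frame alike. The V end was untrimmed in 29.7%, 30.1%, 30.2% and 30.0% of in-frame TRBV13-1 clonotypes and in 17.6%, 16.8%, 17.1% and 17.0% of in-frame TRBV13-3 clonotypes. The ranges did not overlap, and the difference of -12.8 ± 0.572 percentage points (SD, n = 4) had the same sign in all libraries. Out of frame, the untrimmed share was 27.7%, 26.1%, 27.7% and 30.7% for TRBV13-1 against 13.9%, 17.9%, 15.2% and 16.7% for TRBV13-3, a difference of -12.1 ± 2.72 points with no overlap. An exact two-sided permutation test that flips the sign of the 4 within-library differences gave p = 0.13 for each, which is the smallest it can give. Bases listed as palindromic can mark an end that was opened and not trimmed. They were found in 15.3% ± 0.391 of in-frame TRBV13-1 and 7.87% ± 0.409 of in-frame TRBV13-3 clonotypes. The mean number of germline V bases kept in frame was 13.9 ± 0.018 for TRBV13-1 and 13.2 ± 0.035 for TRBV13-3, and out of frame 13.5 ± 0.063 and 12.9 ± 0.042.

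When clonotypes were sorted by the number of bases removed, 11 of 12 in-frame classes differed between the genes at an adjusted p below 0.05 (91.7% of those tested; edgeR quasi-likelihood test with the library as a block). TRBV13-3 was lower in the 5 classes with 0 or 1 base removed or with palindromic bases, and higher in the 6 classes from 3 bases upward. The class with 2 bases removed held 19.2% ± 0.367 of TRBV13-1 and 19.3% ± 0.656 of TRBV13-3 clonotypes, with a log2 ratio of 0.00 ± 0.04 (SE). Ends with 2 palindromic bases made up 6.43% ± 0.289 of TRBV13-1 and 3.13% ± 0.332 of TRBV13-3 clonotypes, a log2 ratio of -1.02 ± 0.07 (adjusted p = 3.77e-16). Ends with 5 bases removed, which stop inside the second serine codon, made up 8.98% ± 0.399 and 14.6% ± 0.787, a log2 ratio of 0.71 ± 0.05 (adjusted p = 1.59e-16). Such small edgeR values draw on spread pooled over the 12 classes, which come from the same libraries and sum to a fixed total. Out of frame 6 of 12 classes were called (50%), with log2 ratios of -1.18 ± 0.20 for 2 palindromic bases and 0.55 ± 0.11 for 5 bases removed. Without Vsig4-deficient 1, 3 out-of-frame classes were called. In frame, 10 or 11 classes were called with any one library left out.

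**Figure D1:**
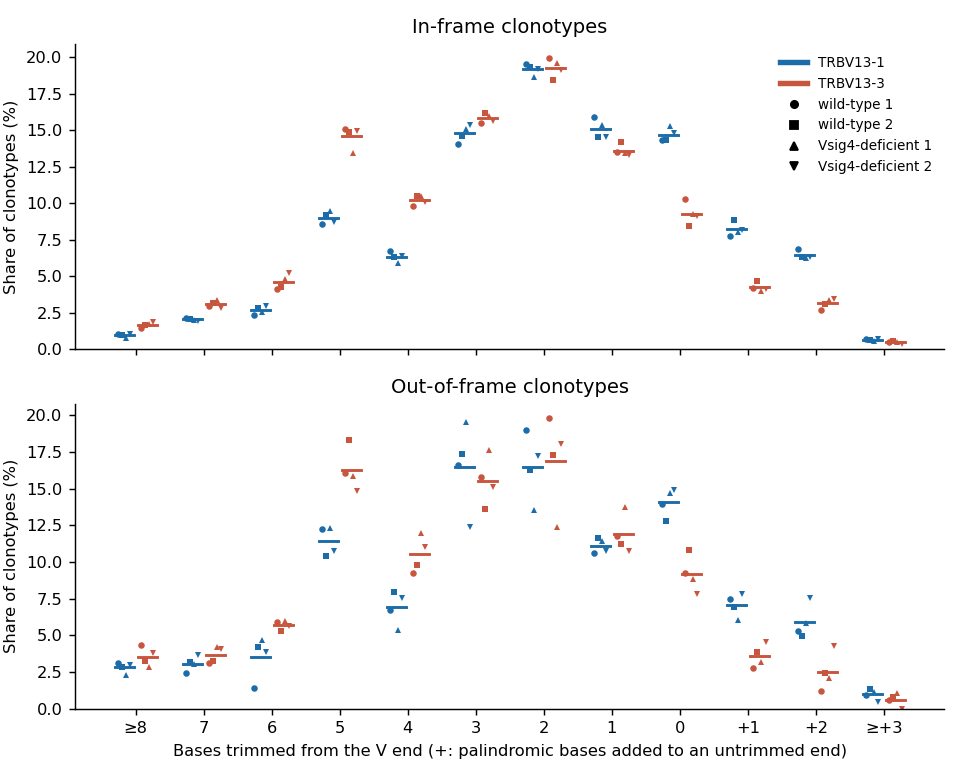
Share of clonotypes (%, vertical axis) by the number of bases trimmed from the V end (horizontal axis, with untrimmed ends that carry palindromic bases marked +), for in-frame (top) and out-of-frame (bottom) clonotypes. Each point is 1 library and each line the mean of the 4 libraries. TRBV13-1 lies above TRBV13-3 at 0, +1 and +2 and below it at 4 and 5 in both panels.

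Among all TRBV segments with at least 100 in-frame clonotypes in every library, the untrimmed share ran from 0.748% for TRBV4 to 63.5% for TRBV2. TRBV13-2 ranked 6 of 20 at 35.0% ± 0.369, TRBV13-1 ranked 9 at 30.0% ± 0.235 and TRBV13-3 ranked 11 at 17.1% ± 0.354. The 3 Vβ8 genes thus took different places in the order, and their ranges over libraries did not overlap.

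The germline end encodes aspartate at position 5 of the CDR3, and fewer TRBV13-3 than TRBV13-1 receptors had it there. CDR3s that begin CASSD made up 52.9%, 51.7%, 52.5% and 51.5% of in-frame TRBV13-1 clonotypes and 39.1%, 37.8%, 38.5% and 37.3% of in-frame TRBV13-3 clonotypes. The difference was -14.0 ± 0.159 points and the ranges were far apart. The start CASR, in which the second serine is replaced by arginine, was rarer, at 5.72%, 6.47%, 6.88% and 5.66% for TRBV13-1 and 10.2%, 9.76%, 9.16% and 9.63% for TRBV13-3, again without overlap. Starts with CASSE (11.5% ± 0.151 and 11.6% ± 0.218) and CASSG (9.78% ± 0.351 and 10.05% ± 0.062) differed by less than 1 point. TRBV13-2, whose germline end encodes glycine in place of the second serine, began with CASSD in 0.165% of clonotypes.

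The centre of the CDR3, taken from position 5 to the 5th residue from its end, was less acidic in TRBV13-3 receptors. Of the 20 amino acids, 12 differed in share between the genes (60% of those tested, edgeR adjusted p below 0.05), with 9 higher and 3 lower in TRBV13-3. Aspartate made up 15.1% ± 0.153 of central residues of TRBV13-1 and 12.9% ± 0.106 of TRBV13-3, a log2 ratio of -0.23 ± 0.01. Alanine (log2 ratio -0.12 ± 0.01) and valine (-0.19 ± 0.02) were also lower. Proline, whose ring restricts the backbone, was higher at 2.88% ± 0.081 against 2.34% ± 0.019, a log2 ratio of 0.30 ± 0.02. The other residues higher in TRBV13-3 were tryptophan (0.22), serine (0.13), tyrosine (0.09), asparagine, arginine and glutamine (0.07 each), threonine (0.06) and glycine (0.03). The direction for glycine turned under TMM factors (-0.00062) and under DESeq2 (-0.02). DESeq2 called aspartate alone, and TMM factors left 6 calls, namely alanine, aspartate and valine lower and proline, serine and tryptophan higher. Weighted by counts no residue was called, and aspartate turned to a log2 ratio of 0.11. The mean net charge of the centre (lysine and arginine minus aspartate and glutamate) was -0.878, -0.89, -0.881 and -0.87 in TRBV13-1 and -0.738, -0.709, -0.716 and -0.714 in TRBV13-3, without overlap.

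Much of that contrast sat at position 5, the last codon that the germline V end encodes in full. Aspartate stood there in 55.1% ± 0.816 of TRBV13-1 and 42.3% ± 0.974 of TRBV13-3 clonotypes, proline in 3.62% ± 0.225 and 6.61% ± 0.405, and glycine in 12.5% ± 0.518 and 14.6% ± 0.146. Counted from position 6 onward, a range chosen after the values were seen, 7 of 20 residues were called. Aspartate (log2 ratio -0.03) and proline (0.00063) were then no longer among them, while valine (-0.33 ± 0.04) and alanine (-0.15 ± 0.02) were still lower and tryptophan (0.20 ± 0.04), serine (0.11 ± 0.02), tyrosine (0.08 ± 0.03) and asparagine (0.07 ± 0.02) still higher in TRBV13-3. Leucine was called as well, lower at -0.12 ± 0.04. Position 6 is not free of the V end, because an untrimmed end gives its first base, G. With 2 palindromic bases the codon reads GCA, for alanine. How far this enters the residues from position 6 onward and the hydrophobic pairs below was not tested. Hydrophobic residues at both position 6 and position 7 (alanine, valine, isoleucine, leucine, methionine, phenylalanine, tryptophan or cysteine) were found in 4.02%, 4.47%, 4.83% and 4.07% of TRBV13-1 clonotypes. The shares for TRBV13-3 were 2.53%, 2.57%, 2.78% and 2.41%, below all those of TRBV13-1, and for TRBV13-2 the mean was 6.11%. Such pairs are known from other work as a feature of self-reactive receptors.

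TRBV13-3 CDR3s were slightly shorter. The mean length was 13.79, 13.80, 13.81 and 13.86 amino acids for TRBV13-1 and 13.74, 13.68, 13.72 and 13.72 for TRBV13-3, a difference of -0.0983 ± 0.0361 that was negative in all 4 libraries (exact permutation p = 0.13). Both genes used 14 residues most, in 28.4% ± 0.995 and 30.1% ± 1.02 of clonotypes. Next were 15 and then 13 residues for TRBV13-1 (22.0% ± 0.784 and 18.8% ± 0.285), and 13 and 15 residues at similar shares for TRBV13-3 (19.3% ± 1.06 and 18.9% ± 0.626). Of 13 lengths tested, 3 differed between the genes (23.1%, edgeR adjusted p below 0.05). CDR3s of 15 residues made up 23.1%, 21.2%, 21.9% and 21.8% of TRBV13-1 and 19.6%, 18.4%, 18.4% and 19.3% of TRBV13-3 clonotypes, without overlap, a log2 ratio of -0.21 ± 0.05 (adjusted p = 0.000628). CDR3s of 17 residues were also lower (log2 ratio -0.39 ± 0.12, adjusted p = 0.013) and those of 12 residues higher (0.17 ± 0.05, adjusted p = 0.013) in TRBV13-3. The ranges did not overlap for 12 residues but did for 17, where TRBV13-3 was higher in wild-type 1 (1.87% against 1.74%). DESeq2 called none of the 3, no length was called when clonotypes were weighted by counts, and without wild-type 1 or without Vsig4-deficient 2 the length of 15 alone was called. Out of frame, where length was counted in bases, the mean was 42.2 ± 0.183 for TRBV13-1 and 41.3 ± 0.276 for TRBV13-3, and the difference was negative in all 4 libraries.

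**Figure D2:**
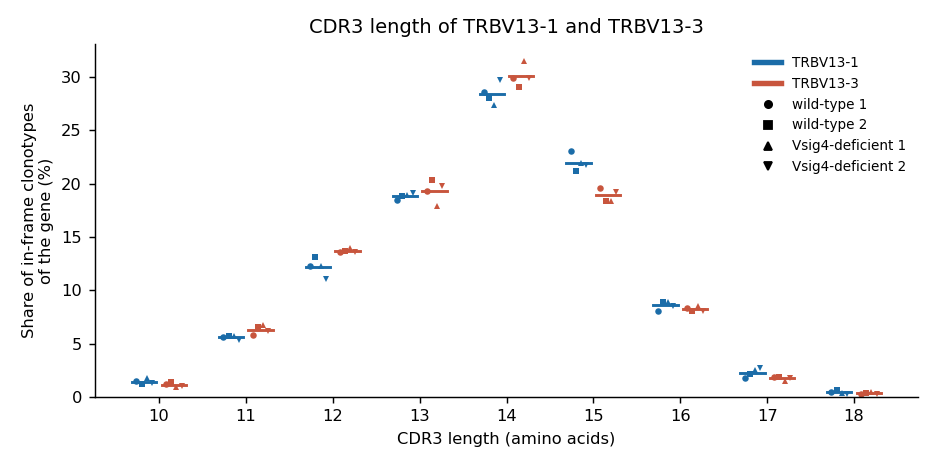
Share of the in-frame clonotypes of each gene (%, vertical axis) by CDR3 length in amino acids (horizontal axis). Points are libraries and lines are means of 4 libraries, and the separation of the genes is clearest at 15 residues, where TRBV13-1 averaged 22.0% and TRBV13-3 18.9%.

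Both genes paired most often with the same 3 J segments. The 3 most used by TRBV13-1 were TRBJ2-7 (19.8% ± 0.823 of its in-frame clonotypes), TRBJ2-1 (13.6% ± 0.96) and TRBJ1-1 (12.6% ± 0.545), and TRBV13-3 used the same 3 at 19.6% ± 0.722, 13.9% ± 0.607 and 10.8% ± 0.608. In all, 5 of 12 J segments differed between the genes (41.7%, edgeR adjusted p below 0.05), 3 lower and 2 higher in TRBV13-3. TRBJ1-1 was found in 12.8%, 13.1%, 12.8% and 11.8% of TRBV13-1 clonotypes and in 10.2%, 11.4%, 11.3% and 10.4% of TRBV13-3 clonotypes, without overlap, a log2 ratio of -0.22 ± 0.04 (adjusted p = 0.00262). TRBJ2-2 was found in 4.49%, 4.89%, 5.11% and 5.22% of TRBV13-1 and 5.25%, 5.80%, 5.85% and 5.94% of TRBV13-3 clonotypes, a log2 ratio of 0.21 ± 0.04 (adjusted p = 0.00584).

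TRBJ1-4 was also lower in TRBV13-3 (log2 ratio -0.20 ± 0.05, adjusted p = 0.00875), as was TRBJ1-5 (-0.32 ± 0.09, adjusted p = 0.016), and TRBJ1-3 was higher (0.19 ± 0.06, adjusted p = 0.039). The libraries of the genes did not overlap for TRBJ1-4 but did for TRBJ1-5 and TRBJ1-3. Without wild-type 1, TRBJ1-1, TRBJ1-4 and TRBJ2-2 were called. DESeq2 called TRBJ1-1, TRBJ1-4 and TRBJ1-5, and with clonotypes weighted by counts 1 J segment was called, TRBJ1-2 (lower in TRBV13-3, and named after its value was seen). In the test of whether the gene difference itself differed between the genotypes, none of 12 J segments was called (0%, with 0 at an unadjusted p below 0.05 in edgeR and 0 calls in DESeq2), and the smallest adjusted p was 0.756.

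**Figure D3:**
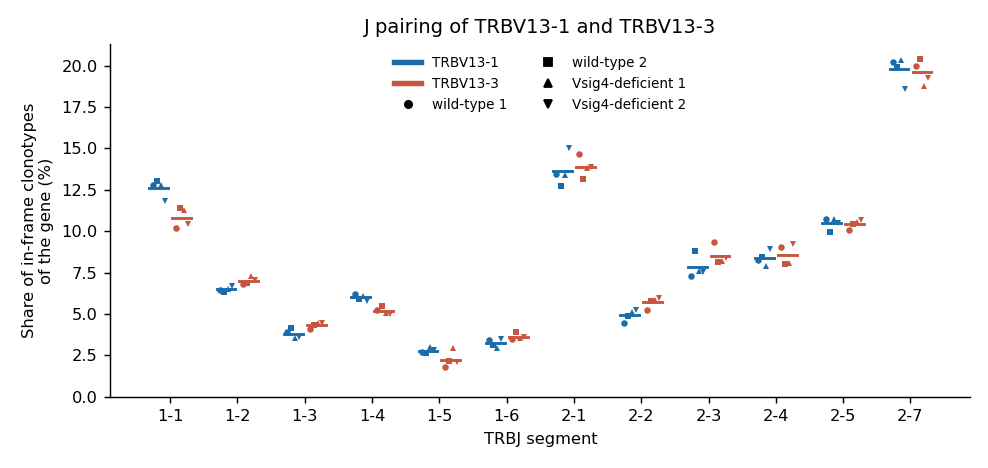
Share of the in-frame clonotypes of each gene (%, vertical axis) that carry each TRBJ segment (horizontal axis). Points are libraries and lines are means of 4 libraries. The same 3 J segments lead in both genes, and TRBV13-1 lies above TRBV13-3 at TRBJ1-1 and TRBJ1-4 and below it at TRBJ2-2.

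Out of frame, none of 12 J segments was called between the genes (0%; edgeR, with 2 at an unadjusted p below 0.05 and 0 calls in DESeq2). The pair at an unadjusted p below 0.05 was TRBJ2-7 (log2 ratio 0.26 ± 0.09) and TRBJ1-5 (-0.77 ± 0.29), and under TMM factors TRBJ2-7 passed the adjusted threshold. These rest on 701 and 73 clonotypes, so the precision is lower than in frame. Compared within each gene, TRBJ1-1 stood apart between the frames. It was carried by 12.6% ± 0.545 of in-frame but 6.62% ± 1.32 of out-of-frame TRBV13-1 clonotypes, and by 10.8% ± 0.608 against 5.12% ± 1.04 of TRBV13-3 clonotypes, with no overlap in either gene. TRBJ2-7, by contrast, was carried by fewer in-frame (19.6% ± 0.722) than out-of-frame (22.9% ± 1.40) clonotypes of TRBV13-3, in all 4 libraries. For TRBV13-1 the shares were 19.8% ± 0.823 in frame and 18.9% ± 1.64 out of frame, higher in frame in 3 of 4 libraries. The TRBJ2 cluster as a whole held 65.0% ± 0.529 of in-frame TRBV13-1 and 66.8% ± 1.36 of in-frame TRBV13-3 clonotypes, and 70.2% ± 1.16 and 73.7% ± 1.79 of out-of-frame ones. In-frame shares of the TRBJ2 cluster were lower than out-of-frame shares in all 4 libraries for both genes.

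TRBD1 precedes the TRBJ1 cluster and TRBD2 lies between the J clusters, so TRBD1 can join either cluster. Among clonotypes with a single D segment listed, TRBD1 made up 54.0%, 53.3%, 53.3% and 54.0% for TRBV13-1 and 54.1%, 55.1%, 57.3% and 57.0% for TRBV13-3. The difference was 2.25 ± 1.65 points, positive in all 4 libraries (exact permutation p = 0.13), but only 0.135 points in wild-type 1. Weighted by counts the difference turned to -0.917. Within the TRBJ1 cluster TRBD1 made up 92.2% ± 0.963 for TRBV13-1 and 93.3% ± 0.952 for TRBV13-3. The remaining clonotypes were listed with TRBD2, although it lies beyond that cluster, so some D segments may be misassigned. How often this happened was not tested. Within the TRBJ2 cluster TRBD1 made up 37.5%, 36.9%, 36.5% and 38.2% for TRBV13-1 and 38.9%, 39.7%, 42.9% and 42.8% for TRBV13-3, and the ranges did not overlap. That gap was 3.45 points wider in the Vsig4-deficient than in the wild-type libraries, with an exact permutation p of 0.33, the smallest that 2 against 2 libraries can give. Out of frame, the TRBD1 share within the TRBJ2 cluster was 37.2% ± 1.70 and 36.8% ± 2.93, with differences of both signs. No D segment was recognised in 26.7% ± 0.49 of in-frame TRBV13-1 and 24.1% ± 0.424 of in-frame TRBV13-3 clonotypes. Where a single D segment was listed, 1.274 ± 0.036 and 1.249 ± 0.029 bases were inserted on average between V and D in frame. Out of frame the means were 1.478 ± 0.029 and 1.297 ± 0.060, lower for TRBV13-3 in all 4 libraries and without overlap.

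By number of clonotypes the genes did not differ beyond their spread, at 9.05%, 9.07%, 9.03% and 10.3% of in-frame clonotypes for TRBV13-1 and 8.97%, 9.33%, 8.80% and 10.8% for TRBV13-3. The difference was 0.0921 ± 0.3 points, with both signs. They ranked 3 and 2 among all TRBV segments by mean, after TRBV13-2 at 12.9% ± 0.96. Out of frame they were not equal. TRBV13-1 held 8.69%, 8.62%, 8.59% and 8.86% of out-of-frame clonotypes and TRBV13-3 only 6.76%, 6.38%, 5.67% and 7.54%, without overlap. The ratio of in-frame to out-of-frame usage was therefore 1.04, 1.05, 1.05 and 1.17 for TRBV13-1 and 1.33, 1.46, 1.55 and 1.43 for TRBV13-3, again without overlap (difference 0.364 ± 0.112, exact permutation p = 0.13).

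The in-frame share of TRBV13-1 clonotypes was 91.2%, 91.0%, 90.8% and 94.3%, and that of TRBV13-3 was 93.0%, 93.3%, 93.6% and 95.3%. Vsig4-deficient 2 was highest for both genes, and within every library TRBV13-3 was higher, by 1.97 ± 0.776 points. Of 21 segments with at least 20 out-of-frame clonotypes in every library, TRBV13-3 ranked 6 and TRBV13-1 ranked 9 in the usage ratio, which ran from 0.0369 for TRBV22 to 2.29 for TRBV12-2. TRBV13-2 was at 1.01 ± 0.062. Transcripts of out-of-frame joins are known to be subject to nonsense-mediated decay.

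**Figure D4:**
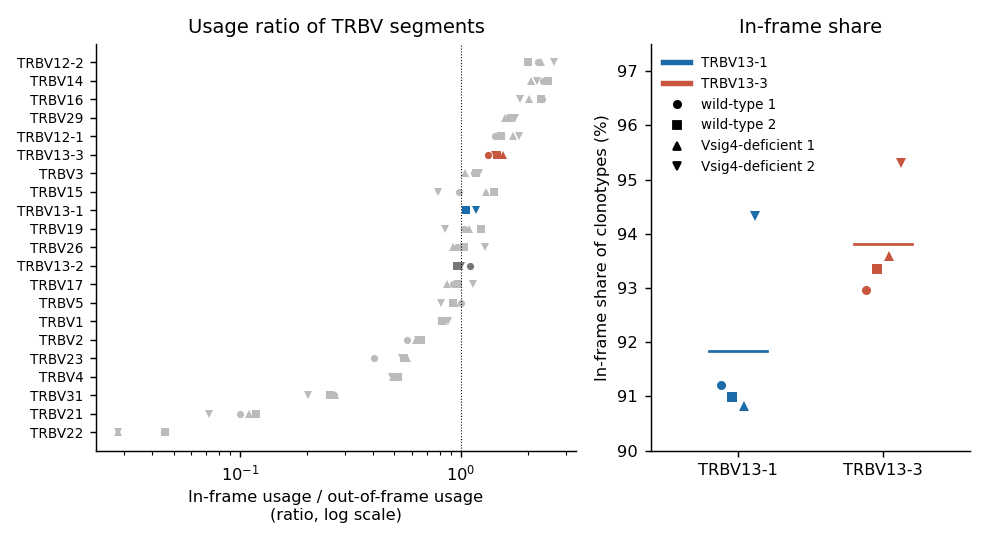
Left, ratio of in-frame to out-of-frame usage (log scale, horizontal axis) of 21 TRBV segments, with TRBV13-1 in blue, TRBV13-3 in red, TRBV13-2 in dark grey and the others in light grey. Right, in-frame share of the clonotypes of both genes (%, axis from 90). Points are libraries and lines are means, and TRBV13-3 lies above TRBV13-1 within every library in both panels.

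By counts the genes parted, and much of that rested on single clones. TRBV13-1 held 14.5%, 12.6%, 10.3% and 10.1% of in-frame counts and TRBV13-3 held 17.6%, 14.5%, 15.6% and 27.4%. TRBV13-3 was higher in all 4 libraries, by 6.88 ± 7.08 points (exact permutation p = 0.13). Without the largest clonotype of each gene in each library, TRBV13-1 held 14.1%, 12.9%, 12.1% and 13.2% and TRBV13-3 15.4%, 15.0%, 15.8% and 15.1%. In that setting TRBV13-3 stayed above TRBV13-1 in each library, within a range of 15.0% to 15.8%. With only the largest clonotype of each library left out, TRBV13-1 held 14.94%, 12.92%, 10.92% and 12.09%. TRBV13-3 then held 14.92%, 14.84%, 16.50% and 12.95%, so the genes were level in wild-type 1.

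The largest clonotype of the gene held 8.52%, 3.16%, 7.46% and 6.56% of TRBV13-1 counts and 17.8%, 1.89%, 20.0% and 60.6% of TRBV13-3 counts. In Vsig4-deficient 2 a single TRBV13-3 clonotype, joined to TRBJ2-5, held 203614 counts. This was 16.6% of all in-frame counts of that library (95% Wilson interval 16.5% to 16.6%). The 10 largest clonotypes held 23.2%, 10.7%, 32.0% and 21.9% of TRBV13-1 counts and 32.4%, 5.28%, 52.8% and 67.2% of TRBV13-3 counts. In wild-type 2 the order of the genes was the reverse of that in the other libraries. The number of clonotypes that made up 50% of the counts of the gene was 367, 1026, 119 and 281 for TRBV13-1 and 257, 1209, 8 and 1 for TRBV13-3.

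Clonality, which is 0 for equal clones and approaches 1 for a single clone, was 0.174, 0.0908, 0.23 and 0.207 for TRBV13-1 and 0.245, 0.0631, 0.37 and 0.602 for TRBV13-3. For each gene both Vsig4-deficient libraries were above both wild-type ones, and this remained so without the largest clonotype of the gene (0.135, 0.0775, 0.202 and 0.181 for TRBV13-1, 0.15, 0.0559, 0.288 and 0.18 for TRBV13-3). The exact permutation p was 0.33 in each case. In TRBV13-2, with all clonotypes, clonality was 0.0944, 0.0576, 0.365 and 0.293, so this order was not particular to TRBV13-1 and TRBV13-3. For the 10 largest TRBV13-3 clonotypes the Vsig4-deficient mean was 60.0% ± 10.2 against 18.8% ± 19.2 (SD, n = 2), without overlap (exact permutation p = 0.33). Without the largest clonotype of the gene the values were 18.1%, 3.63%, 42.0% and 17.6%, and the groups overlapped (exact permutation p = 0.667). For TRBV13-1 the groups overlapped with all clonotypes (exact permutation p = 0.667), and without the largest clonotype they were 16.6% and 7.99% against 27.6% and 17.1% (exact permutation p = 0.33).

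**Figure D5:**
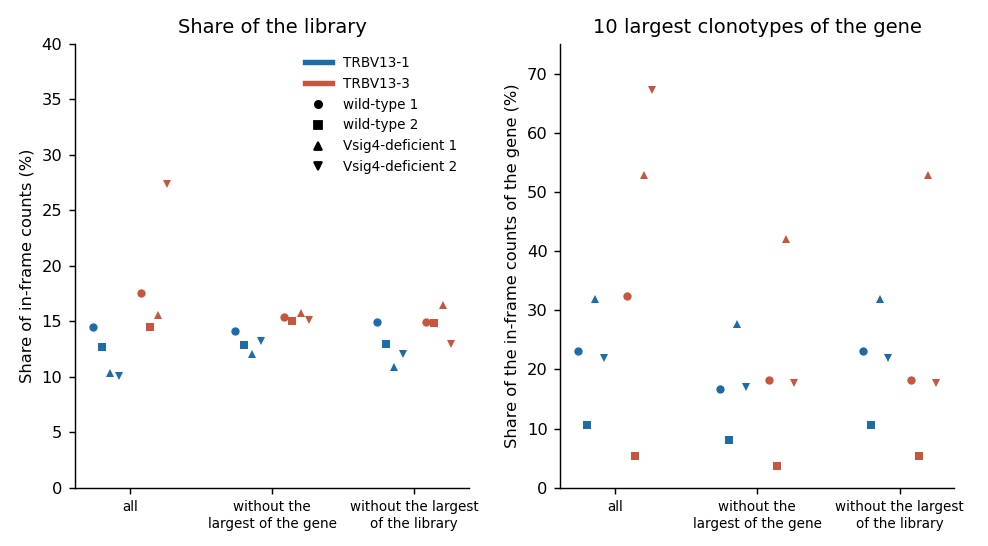
Left, share of the in-frame counts of the library held by each gene (%). Right, share of the counts of the gene held by its 10 largest clonotypes (%). Values are shown with all clonotypes, without the largest of the gene and without the largest of the library, and each point is 1 library. On the left, the TRBV13-3 point of Vsig4-deficient 2 falls from 27.4% to 15.1% without the largest clonotype of every gene. It falls to 12.9% without the largest of the library alone. On the right, it falls from 67.2% to 17.6% in both settings.

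The largest clonotypes are printed to show that they were different joins in each library. Lower case marks the parts assigned to V and J, and capitals mark the bases between them, which hold D and inserted bases. The sequence of the largest TRBV13-3 clonotype of Vsig4-deficient 2 is not shown:
TRBV13-1 wild-type 1: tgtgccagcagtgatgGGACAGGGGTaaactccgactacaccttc
TRBV13-1 wild-type 2: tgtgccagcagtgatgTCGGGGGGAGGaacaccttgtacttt
TRBV13-1 Vsig4-deficient 1: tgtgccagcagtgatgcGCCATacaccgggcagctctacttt
TRBV13-1 Vsig4-deficient 2: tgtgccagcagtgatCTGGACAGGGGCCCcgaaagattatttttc
TRBV13-3 wild-type 1: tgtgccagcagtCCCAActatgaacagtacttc
TRBV13-3 wild-type 2: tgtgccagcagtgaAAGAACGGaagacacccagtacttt
TRBV13-3 Vsig4-deficient 1: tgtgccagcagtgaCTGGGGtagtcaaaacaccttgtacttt
The 4 TRBV13-1 joins kept at least 15 germline V bases and all encode CASSD. They used TRBJ1-2 (10797 counts), TRBJ2-4 (3426 counts), TRBJ2-2 (7380 counts) and TRBJ1-4 (8122 counts), so no J segment recurred. The 3 printed TRBV13-3 joins kept 12, 14 and 14 bases. They read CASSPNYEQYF (TRBJ2-7, 27298 counts), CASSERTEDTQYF (TRBJ2-5, 2351 counts) and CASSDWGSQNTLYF (TRBJ2-4, 29895 counts).

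Second to these, wild-type 1 had the TRBV13-3 clonotype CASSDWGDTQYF with 14185 counts and Vsig4-deficient 1 had a TRBJ2-1 clonotype of 16 residues with 14932. Wild-type 2 had none of that size, and its second TRBV13-3 clonotype, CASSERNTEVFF, had 974 counts. In Vsig4-deficient 2 the second, a TRBJ2-2 clonotype of 15 residues, had 5458 counts. Among TRBV13-1 clonotypes the second largest had 8280, 2834, 7179 and 6103 counts. The last 3 of these were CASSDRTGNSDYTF, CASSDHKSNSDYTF and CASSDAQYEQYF.

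Most clonotypes were found in a single library. Of 17249 TRBV13-1 amino acid clonotypes (CDR3 with J segment) 82.8% were seen in 1 library and 153 in all 4, and of 17534 TRBV13-3 amino acid clonotypes 82.1% and 125. Those found in all 4 libraries were encoded by more nucleotide sequences, 3.55 on average for TRBV13-1 and 3.39 for TRBV13-3, against 1.03 for those of a single library in both genes. A clonotype found in more libraries also has more chances to show several sequences. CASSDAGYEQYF (TRBV13-1 with TRBJ2-7) illustrates this, with 181, 165, 2874 and 540 counts. It is the third largest TRBV13-1 clonotype of Vsig4-deficient 1, and its 8 coding sequences differ only between the germline V end and the J part. The 4 most counted are:
sequence 1: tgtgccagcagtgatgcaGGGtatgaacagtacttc
sequence 2: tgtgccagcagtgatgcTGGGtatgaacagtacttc
sequence 3: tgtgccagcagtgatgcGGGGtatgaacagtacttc
sequence 4: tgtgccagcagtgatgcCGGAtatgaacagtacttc
Sequence 1 was in all 4 libraries, with 3390 counts in total, and uses the full germline V end with its palindromic CA, 3 bases in between and the J part. Sequence 2 was in 2 libraries (155 counts), and sequences 3 and 4 were in 1 library each (79 and 44 counts). For TRBV13-3 the comparable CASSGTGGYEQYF (TRBJ2-7) had 8 coding sequences and 136, 71, 451 and 22 counts.

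Nucleotide sequences shared between libraries were most numerous within a genotype for both genes. Wild-type 1 and 2 shared 643 TRBV13-1 and 740 TRBV13-3 sequences, and Vsig4-deficient 1 and 2 shared 780 and 811. The pairs of different genotype shared between 212 and 558 TRBV13-1 and between 215 and 630 TRBV13-3 sequences. The largest TRBV13-3 clonotype of Vsig4-deficient 1 had 712 counts in Vsig4-deficient 2, 9 in wild-type 1 and 0 in wild-type 2. That of wild-type 1 had 348 in wild-type 2, 34 in Vsig4-deficient 2 and 2 in Vsig4-deficient 1, and that of Vsig4-deficient 2 had 260 in Vsig4-deficient 1, 5 in wild-type 1 and 0 in wild-type 2. What these low counts represent was not tested.

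Because the V ends in the CDR3 are identical, a CDR3 does not tell these genes apart, and the assignment rests on V sequence outside it. In all, 1019 of 42317 CDR3 nucleotide sequences were listed under TRBV13-1 in some library and TRBV13-3 in another, against 41 for TRBV13-1 with TRBV13-2 and 25 for TRBV13-3 with TRBV13-2. No sequence was listed under both genes within a library, nor under either of them and TRBV13-2. Whether the deposited tables can list a CDR3 nucleotide sequence under more than 1 V segment in a library is not stated. That absence therefore does not measure how well the V segments were assigned. At the amino acid level, 236, 519, 234 and 540 CDR3s with their J segment were found under both genes within a library. With the sequences listed under both genes left out, 5 J segments, 3 lengths and 12 residues were called between the genes, as many as with them. A sequence found in a single library could not be flagged in this way, so how far wrong V assignment enters the calls was not tested.

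Genotype made no called difference to the use of either gene. The fitted log2 ratio of Vsig4-deficient over wild-type clonotypes was 0.10 ± 0.11 (SE) for TRBV13-1 and 0.10 ± 0.13 for TRBV13-3, and none of 23 TRBV segments was called (0%; edgeR, 1 at an unadjusted p below 0.05, DESeq2 0). Without Vsig4-deficient 1, the ratios were 0.19 and 0.23 and 12 segments were called, both genes among them, with the remaining Vsig4-deficient library assumed to vary like the wild-type ones. Without Vsig4-deficient 2 they were -0.0043 and -0.06. By counts the log2 ratio was -0.41 ± 0.35 for TRBV13-1 and 0.42 ± 0.41 for TRBV13-3, and none of 24 segments was called (0%; edgeR, 3 at an unadjusted p below 0.05, DESeq2 1). On simulated data this test found 9% of the segments changed 2-fold, so an absent call by counts says little. The TRBV13-3 ratio was -0.01 without the largest clonotype of each library.

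Of 259 pairs of a TRBV with a TRBJ segment none was called between the genotypes (0%; edgeR, 10 at an unadjusted p below 0.05, DESeq2 0), although 86 were without Vsig4-deficient 1. The log2 ratios of the 12 pairs of TRBV13-1 had a median of 0.11 and those of the 12 pairs of TRBV13-3 a median of 0.12. The median over all 259 pairs was -0.02. Pairs of a gene are not separate evidence, since each carries the ratio of the gene as a whole. That ratio was 0.10 for both genes, and -0.0043 for TRBV13-1 and -0.06 for TRBV13-3 without Vsig4-deficient 2. The smallest unadjusted p was 0.0625, for TRBV13-3 with TRBJ1-5 (log2 ratio 0.41 ± 0.19, adjusted p = 0.682). The mean untrimmed share of the V end in frame differed between the genotypes by 0.172 points for TRBV13-1 and -0.177 points for TRBV13-3, less than the spread between libraries.

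By mean distance, each gene was nearest to the other in J usage. The Jensen-Shannon distance between the J usage of TRBV13-1 and TRBV13-3 was 0.0465 ± 0.00909 (mean and SD over 4 libraries, 0 for identical usage), the smallest of 19 segments for both. The next were TRBV29 (0.06 from TRBV13-1 and 0.0577 from TRBV13-3) and TRBV31 (0.065 and 0.0643). The same gene compared between libraries gave 0.0322 ± 0.00736 for TRBV13-1 and 0.0335 ± 0.00732 for TRBV13-3. The ranges over libraries overlapped for both genes. The distance between them ran from 0.0394 to 0.0598, while TRBV29 was at 0.0536 to 0.065 from TRBV13-1 and at 0.0432 to 0.0825 from TRBV13-3, and TRBV31 at 0.0559 to 0.0714 and at 0.0523 to 0.079. TRBV13-2, the gene between them, used TRBJ1-1 less than either, with log2 ratios of -0.44 ± 0.06 against TRBV13-1 and -0.22 ± 0.06 against TRBV13-3, and TRBJ2-5 more, with 0.34 against each. In edgeR 5 of 12 J segments differed between TRBV13-2 and TRBV13-1 (41.7%) and 7 of 12 between TRBV13-2 and TRBV13-3 (58.3%), while DESeq2 called none in either. Its CDR3s were longer, at 14.0 amino acids on average, and TRBD1 made up 44.3% of its clonotypes with a single D segment, below both TRBV13-1 and TRBV13-3 in every library.

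Across 28 measures, a selection of those computed, compared between TRBV13-1 and TRBV13-3 within libraries, 20 had differences of the same sign in all 4 libraries. Each of those had an exact permutation p of 0.13 and, after Benjamini-Hochberg adjustment over the 28, 0.175. No such measure could pass a threshold of 0.05 with 4 libraries. Several of the 20 describe the same trait, such as the V end by bases kept, untrimmed share and palindromic share. Measures outside the selection were of the same sign in all libraries (such as out-of-frame usage) or of both signs (such as CASSE and CASSG starts). The number 20 therefore does not measure how widely the genes differ.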

How the data were processed

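TRB clonotypes of 4 libraries were taken as deposited. The authors' tables hold, per the file headers, clone counts (whole numbers, without normalization), the clone fraction, a quality score for the CDR3 and the boundaries of the V, D and J parts. The deposited fraction and score were not used in any result. The submitters' processing notes name the build mm10. The assembler, its filters and whether a count is a read or a molecule are not stated in the sources used here. Intervals therefore cover counting error only.

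In-frame clonotypes were compared, each counted once unless counts are named. Feature shares were tested with edgeR 4.0.16 (R 4.3.3; quasi-likelihood, offsets from totals, at least 10 clonotypes per feature, Benjamini-Hochberg adjustment within each family, threshold 0.05), with DESeq2 1.42.0 as an alternative, and single values with exact permutation tests. Python 3.11.15, numpy 2.4.6, pandas 2.3.3, SciPy 1.17.1 and matplotlib 3.10.9 did the rest. On data simulated from these libraries, edgeR recovered 93% of 1.25-fold changes of 12 J segments between the genes, and 40% of 1.5-fold changes of 23 V segments by clonotypes between the genotypes. For 24 V segments by counts the test found 4% of those simulated at 1.5-fold and 9% at 2-fold. Where other features were changed 1.5-fold, unchanged ones were called in 7% (J segments), 13.87% (lengths), 15.89% (residues) and 10.4% (in-frame V-end classes) of cases, and where they were changed 2-fold, in 27.8%, 21.22%, 33.67% and 26.4%. Shares of a gene sum to a fixed total, so a change in one shifts the others. The edgeR fits also pooled the spread over the features of a family, which came from the same libraries. Their p-values therefore do not measure the spread of a single feature among libraries alone.

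Named items were the features past the threshold, the 3 most used, and the 3 largest clonotypes of each gene per library. The sequence of 1 clonotype so named is not reported here. The members and lists were chosen with earlier results of these data known. V-end classes, residues at position 5 and from position 6, usage ratios, the likelihood ratio test and the alternatives on V assignment were added after the data were seen. Other alternatives were TMM factors, no minimum, weighting by counts, amino acid clonotypes, leaving out single-count, tied, low shared or largest clonotypes, the replicate number as a block, and each library in turn.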

Additional observations from a re-analysis of the deposited data

How the results depend on the processing

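Of the values that answer a comparison, 179 of 200 recomputed under an alternative counted as unchanged, which for a count of calls means within 1.5 times the main count, so that single calls could still be lost. Of the values for single segments, lengths and residues, 748 of 851 kept their direction and side of the threshold. Both totals include alternatives that could hardly change a value counted by clonotypes. Examples are leaving out the largest clonotype or those with tied V hits, which numbered 0, 1, 0 and 1 in frame for the 2 genes together. Each library left out in turn gave 3 to 6 called J segments, 1 to 4 lengths and 8 to 10 residues between the genes, and 0 to 12 V segments by clonotypes, 0 to 1 by counts and 0 to 86 V-J pairs between the genotypes, the highest of these last 3 always without Vsig4-deficient 1. DESeq2 called 3 J segments, 0 lengths, 1 residue and 1 V segment by counts. TMM factors gave 5 lengths, 6 residues and 1 out-of-frame J segment. Weighting by counts left 1 J segment, 0 lengths and 0 residues, and turned the TRBD1 difference to -0.917. Residues from position 6 gave 7 calls. The likelihood ratio test called 1 V segment by counts and 1 V-J pair, and 1 V segment by counts was called without the largest clonotype of each gene. The cause of these shifts was not tested.

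Without any one library, the log2 ratio between the genotypes ran from -0.00433 to 0.19 (TRBV13-1) and from -0.0574 to 0.232 (TRBV13-3) by clonotypes and from -0.0405 to 0.771 (TRBV13-3) by counts, with the lowest, reversed value always without Vsig4-deficient 2. It was -0.0147 for TRBV13-3 by counts without the largest clonotype of each library. TRBJ2-1, never called between the genes, ran from -0.0171 (without wild-type 1) to 0.0716, and turned without wild-type 2 (-0.00118), under TMM (-0.0109), DESeq2 (-0.00192) and weighting (-0.283). Glycine turned under TMM (-0.000621) and DESeq2 (-0.0193). Weighting also turned TRBJ1-3 (-0.23), aspartate (0.11), asparagine (-0.0214), glutamine (-0.21), serine (-0.23), threonine (-0.35) and tyrosine (-0.17).

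With the replicate number as a block, genotype fits called 0 V segments by clonotypes, 0 by counts and 0 V-J pairs; the log2 ratios were 0.09 and 0.09 for TRBV13-1 and TRBV13-3 by clonotypes and -0.41 and 0.37 by counts, and no call changed. Deviations of same-numbered libraries correlated at r = 0.155 over 23 segments, and whether the numbers mark a shared batch cannot be told from 2 numbers. In-frame clonotypes were fewer in both libraries numbered 1 (47558 and 47017) than in both numbered 2 (73769 and 70126). Depth limits the out-of-frame values: the half-width of the 95% Wilson interval of the untrimmed share was 3.34 to 4.32 points out of frame and 0.848 to 1.38 in frame.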
